A study of Mus musculus with 2 samples.

Results

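Sestrins and the genes through which amino acids reach mTORC1, the nutrient-sensing kinase complex, were followed in spinal cord RNA of C57BL/6 mice at postnatal day 7. The set comprised 10 genes, taken by symbol from a table of 51826 genes, and the 72 transcripts that the deposited transcript table lists for them among 128622 in all. One group (cKO) carried Olig1-Cre together with a Secisbp2l allele floxed at exon 3, and the other (WT) was wild type. Each group gave 1 library, made with an mRNA-seq kit, from spinal cord that was not sorted by cell type. Olig1-Cre acts in the oligodendrocyte lineage, so targeted cells were mixed with all other cells of the cord. The number of animals behind a library, and whether WT mice carried Cre or the floxed allele, are not in the labels. The 10 genes were chosen with their values known, so their values are given as a description. With 1 library per group there is no replicate check and no p-value, and all intervals cover counting error at most.

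Sestrins are stress-induced proteins that restrain mTORC1. They bind GATOR2, a complex that includes Wdr24, and so release GATOR1, built from Depdc5, Nprl2 and Nprl3. GATOR1 switches off the Rag GTPases that hold mTORC1 on the lysosome. For Sesn2, the leucine sensor of the pathway, the binding takes place when leucine is scarce. Mtor encodes the kinase of mTORC1, and Rptor its substrate-binding subunit. Ddit4 (REDD1) restrains mTORC1 by another route, through the TSC complex. In oligodendrocytes mTORC1 supports differentiation, lipid synthesis and myelin formation.

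The starts of the sestrin coding sequences are shown because most of the sestrin result rests on 1 transcript and because Sesn1 has a pair of alternative first exons. The sequences are from GENCODE M21 on GRCm38, 60 bases each, with the start codon in capitals. Sesn1-201 starts coding at chr10:41887494-41887553 and Sesn1-202 at chr10:41811022-41811081, both on the plus strand. Sesn2-201 starts at chr4:132510094-132510153 on the minus strand, and Sesn3-204 at chr9:14276552-14276611 on the plus strand.
Sesn1-201: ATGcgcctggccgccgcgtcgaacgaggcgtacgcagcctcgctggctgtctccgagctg
Sesn1-202: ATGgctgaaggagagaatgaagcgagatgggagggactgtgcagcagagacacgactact
Sesn2-201: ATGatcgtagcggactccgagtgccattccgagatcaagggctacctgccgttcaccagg
Sesn3-204: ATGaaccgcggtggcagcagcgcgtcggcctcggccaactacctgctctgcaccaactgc
The coding sequence of Sesn3-204 (1476 nt) was 68.2% identical to that of Sesn1-201 and 64.2% identical to that of Sesn2-201 over aligned bases. The longest stretch that Sesn3-204 shared exactly with either transcript was 23 nt, with Sesn2-201.

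The libraries held 55179026 (cKO) and 42875143 (WT) estimated counts, with about 2 counts to a sequenced fragment. Secisbp2l, the targeted gene, had 466 CPM (counts scaled to library size) in cKO and 588 CPM in WT. Its log2 ratio, cKO over WT here and throughout, was -0.34 (interval -0.37 to -0.30), a value for whole transcripts that does not isolate exon 3. The libraries also differed in sex-linked RNA. Xist had 13 counts in cKO and 35182 in WT, and 4 Y-linked genes had 1081 to 4280 counts in cKO and 0 in WT. Genotype and sex-linked expression therefore cannot be told apart in any comparison here, although all 10 genes are autosomal. Olig1, the gene the Cre driver is named for, had 176 CPM in cKO and 388 CPM in WT. Its log2 ratio was -1.14 (interval -1.20 to -1.09). Effects of the Cre driver and of the floxed allele cannot be told apart either. Of 14 oligodendrocyte and myelin markers 13 were at least 1.5-fold lower in cKO, with a summed level of 8236 TPM (transcripts scaled to library total, a level per length) in cKO and 15921 TPM in WT. In RNA of a whole tissue, fewer cells of a type and less RNA per cell cannot be told apart. The sum of 10 neuron markers was 6425 TPM in cKO and 5541 TPM in WT. That of 5 red blood cell markers was 6742 TPM in cKO and 4501 TPM in WT. The sum of 7 astrocyte markers was 3617 TPM in cKO and 3607 TPM in WT. Oligodendrocyte precursor markers (7 genes) summed to 518 TPM in cKO and 605 TPM in WT. Microglia markers (6 genes) summed to 140 TPM in cKO and 146 TPM in WT, and endothelial and pericyte markers (6 genes) to 320 TPM in cKO and 295 TPM in WT. Of 5 skeletal muscle markers Acta1 had 6.06 TPM in cKO and 5.21 TPM in WT, and Tnnt3 had 1.96 TPM in cKO and 3.18 TPM in WT, lower by the same fold. The muscle markers Ckm, Myh3 and Myh8 were under 1 TPM in both libraries. Markers of neurons, astrocytes and oligodendrocytes were thus present, as the label spinal cord implies. The part of these shifts in the results below was not tested.

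All 10 genes passed the filter for measured genes, a mean of at least 1 CPM. A gene was called higher or lower where the libraries differed by at least 1.5-fold and the exact (Clopper-Pearson) 95% interval of the ratio left out equality. By this size rule 1 of the 10 genes, Sesn3, was higher in cKO and 0 were lower. Among all 15917 measured genes 2.46% were higher and 3.39% lower. The ratio was above equality for 8 of the 10 genes, against 52.3% of all measured genes. The median log2 ratio of the 10 was 0.20, against 0.01 for all measured genes. The 10 genes were chosen on these values, so nothing is read from these counts.

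**Figure D1:**
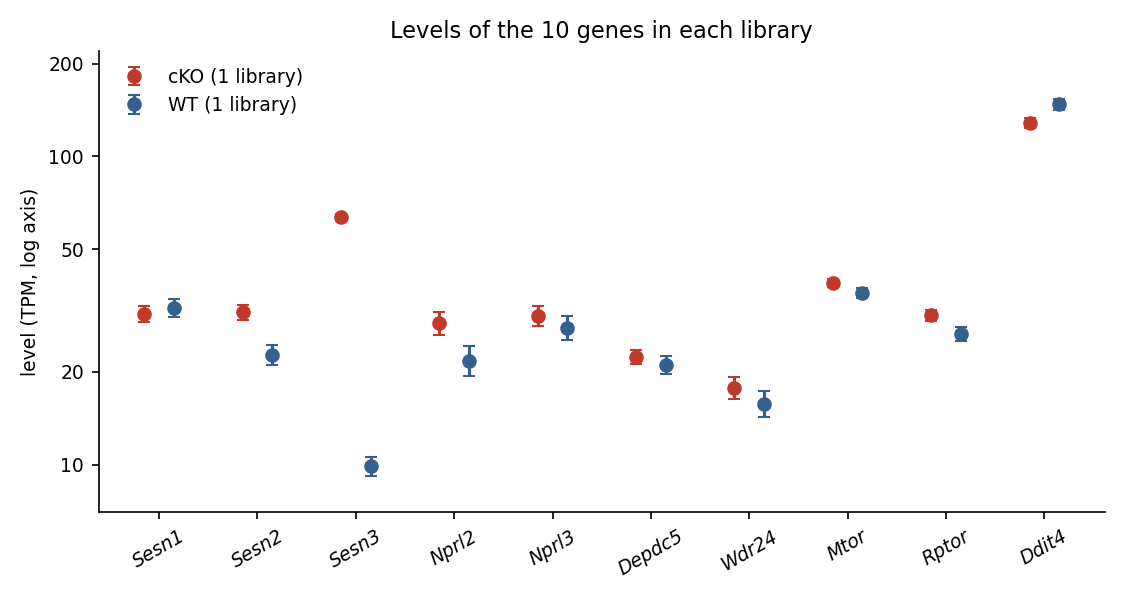
Level of each gene in TPM (log axis) in the cKO library (left of each pair) and the WT library (right); bars are exact Poisson 95% intervals, which cover counting error only. Sesn3 stands at 63.3 TPM in cKO and 9.87 TPM in WT, while the pairs of the other genes lie close together.

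Sesn3, which in other cell types is induced by FoxO factors and restrains mTORC1, differed most. It had 13610 counts in cKO and 1478 in WT. Its level was 63.3 TPM in cKO (exact Poisson interval 61.8 to 64.9) and 9.87 TPM in WT (9.17 to 10.6). Sesn3 was the lowest of the 10 genes in WT and the second highest in cKO, below Ddit4. The log2 ratio of CPM was 2.84 (interval 2.73 to 2.95), or 7.16-fold higher in cKO. The ratio of the authors' TPM was 6.42. Only 20 of the 15917 measured genes, Sesn3 included, had a ratio at least as high, and 4 of these are on chromosome Y. Among the 2324 genes with a mean of at least 100 CPM, Sesn3 had the highest ratio, followed by Phactr1 at 1.58. Sesn3 reached that mean only through cKO (246.8 CPM, against 34.5 CPM in WT). So did Phactr1 (153.5 CPM in cKO and 51.4 CPM in WT). The filter thus depends on the ratio itself, and nothing is read from this rank. The 61 measured markers of the 9 cell type lists had log2 ratios between -1.66 and 0.60, and the part of cell composition in the Sesn3 ratio was not tested.

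Nearly all of the Sesn3 difference lay in Sesn3-204. This transcript had 61.4 TPM in cKO and 8.07 TPM in WT, and held 99.1% of the gene's counts in cKO (Wilson interval 98.8% to 99.3%) and 95.7% in WT (94.1% to 97.0%). Its log2 ratio was 2.89 (interval 2.78 to 3.0). The other 6 transcripts of the gene together had 125 counts in cKO and 63 in WT, a log2 ratio of 0.63 (interval -0.05 to 1.26) that did not leave out equality. Sesn3-206 and Sesn3-203, transcripts annotated with retained introns, had 0.72 and 0.85 TPM in cKO, against 0.36 and 0.49 TPM in WT. Sesn3-204 is 9125 nt long, and its last exon takes up 7482 nt. The 7398 nt after its coding sequence, stop codon included, make up 81.1% of the transcript. With even coverage of the annotated transcript, its count would rest mainly on reads from beyond the coding sequence. Coding and noncoding reads are not separated in the deposited values, so this was not seen directly. Sesn3 lies on the plus strand of chromosome 9, at 14275067 to 14333101 in GRCm38, and no other gene in GENCODE M21 overlaps its exons (ENSMUSG00000032009 in the files).

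Sesn2, the leucine sensor of the pathway and a target of p53 and ATF4, was somewhat higher in cKO without reaching the size rule. It stood at 31.1 TPM in cKO (interval 29.5 to 32.9) and 22.7 TPM in WT (21.1 to 24.3). The counting intervals of the libraries did not overlap. The log2 ratio was 0.42 (interval 0.29 to 0.55), or 1.34-fold, and 5.41% of measured genes had a ratio at least as high. The gene (ENSMUSG00000028893, minus strand of chromosome 4, 132492032 to 132510501) has 1 listed transcript, Sesn2-201.

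Sesn1, the sestrin best known as a p53 target, was close between the libraries. Its level was 30.8 TPM in cKO and 32.2 TPM in WT, and its log2 ratio of -0.09 (interval -0.22 to 0.04) did not leave out equality. The gene (ENSMUSG00000038332) lies on the plus strand of chromosome 10, at 41809935 to 41908424. Its alternative first exons, whose coding starts are printed above, were close as well. Sesn1-201 had 21.7 TPM in cKO and 23.3 TPM in WT, and Sesn1-202 had 8.84 TPM in cKO and 8.69 TPM in WT. Sesn1-201 held 62.6% of the gene's counts in cKO (Wilson interval 59.7% to 65.4%) and 64.6% in WT (61.4% to 67.6%). These transcripts share their last 2447 nt, and the authors' estimate could tell them apart only by 153 nt of Sesn1-201 and 1362 nt of Sesn1-202. The Wilson intervals use all counts of the gene and are too narrow for that reason.

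The balance among the sestrins differed accordingly. Their summed level was 125.3 TPM in cKO and 64.7 TPM in WT, a ratio of 1.94. Sesn3 made up 50.5% of the sum in cKO and 15.2% in WT, Sesn2 24.9% in cKO and 35.0% in WT, and Sesn1 24.6% in cKO and 49.7% in WT. Sesn1 was thus the most abundant sestrin RNA in WT and Sesn3 in cKO, where Sesn1 and Sesn2 had overlapping counting intervals.

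**Figure D2:**
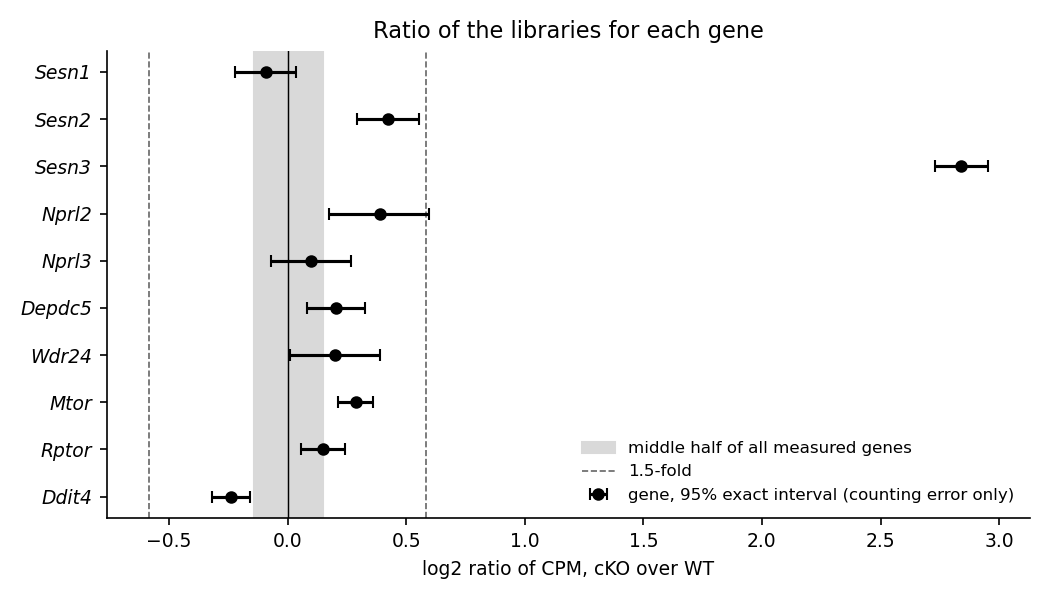
Log2 ratio of CPM, cKO over WT, for each gene (points) with its exact 95% interval for counting error; the grey band spans the quartiles of all measured genes (-0.14 to 0.15) and dashed lines mark 1.5-fold. Sesn3 at 2.84 is alone beyond the dashed lines, and Sesn1 and Ddit4 are the genes with ratios below 0.

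The GATOR1 genes, whose complex is the GTPase activator that turns off RagA and RagB, all lay within 1.5-fold. Nprl2 (ENSMUSG00000010057, chromosome 9, 107542226 to 107545706, plus strand) had 28.7 TPM in cKO (interval 26.2 to 31.3) and 21.7 TPM in WT (19.3 to 24.3), a log2 ratio of 0.39 (interval 0.17 to 0.60). Nprl3 (ENSMUSG00000020289, chromosome 11, 32225628 to 32267707, minus strand) had 30.4 TPM in cKO and 27.7 TPM in WT, with a log2 ratio of 0.10 (interval -0.07 to 0.27). Depdc5 (ENSMUSG00000037426, chromosome 5, 32863701 to 32994236, plus strand) had 22.3 TPM in cKO and 21.01 TPM in WT, with a log2 ratio of 0.20 (interval 0.08 to 0.33). The libraries' counting intervals were apart for Nprl2 and overlapped for Nprl3 and Depdc5. Nprl3 overlaps exons of the antisense gene Mpg, which had 692 counts in cKO and 529 in WT, and the strand setting is not given, so its count is uncertain to that extent.

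Depdc5 differed in its transcripts more than in its sum. Depdc5-202 had 6.99 TPM in cKO and 2.13 TPM in WT, a log2 ratio of 1.67 (interval 1.43 to 1.92). Depdc5-204 had 3.71 TPM in cKO and 5.23 TPM in WT (-0.53, interval -0.74 to -0.32). Depdc5-206, annotated for nonsense-mediated decay, had 2.61 TPM in cKO and 5.52 TPM in WT (-1.11, interval -1.48 to -0.74). Depdc5-202 held 50.7% of the gene's counts in cKO (Wilson interval 48.0% to 53.3%) and 18.3% in WT (15.9% to 20.9%), while Depdc5-204 held 25.9% in cKO and 43.2% in WT. Of 27 measured transcripts of the 10 genes, 2 were higher and 3 lower by the size rule, where 13.1% of all 32757 measured transcripts were higher and 12.9% lower. A difference of at least 20 percentage points in a transcript's share was found in 10.9% of 6858 genes with several transcripts and at least 1000 counts in each library, and 6.23% of them had a difference as large as the 32.4 points of Depdc5. The median of the largest difference over these genes was 2.53 points.

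A pair of coding parts sets these Depdc5 transcripts apart, and their sequences are given to show what the counts were divided by. Depdc5-202 begins an exon 27 bases earlier, at chr5:32937521-32937547, and Depdc5-204 holds an exon of 61 bases, at chr5:32986936-32986996, that Depdc5-202 lacks. Both are on the plus strand of GRCm38. Capitals mark those bases, and lower case the 15 bases on each side in the transcript.
Depdc5-202: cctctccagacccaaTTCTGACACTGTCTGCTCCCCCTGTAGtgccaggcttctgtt
Depdc5-204: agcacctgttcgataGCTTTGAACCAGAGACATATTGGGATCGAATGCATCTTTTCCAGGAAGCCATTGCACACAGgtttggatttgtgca
The 27 bases keep the reading frame, and the 61 bases leave a remainder of 1 when divided by 3. By the authors' estimate, the transcript that skips the 61-base exon took 54.0% of the counts of transcripts spanning it in cKO (Wilson interval 51.3% to 56.7%) and 19.5% in WT (17.0% to 22.3%). Transcripts with the 27 bases took 64.8% of the counts of those spanning them in cKO (62.1% to 67.3%) and 43.1% in WT (39.9% to 46.5%). Both sets of intervals treat every count as known to belong to its transcript. Most bases are shared and were divided by estimate, so the intervals are too narrow. That higher share in cKO came from Depdc5-202 alone. The others with the 27 bases had lower shares of the gene's counts in cKO. Depdc5-206 held 7.32% in cKO and 18.3% in WT, and Depdc5-210 held 2.83% in cKO and 3.98% in WT. Depdc5-202 is counted in both figures and also has an exon of 303 noncoding bases near its start that Depdc5-204 lacks.

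**Figure D3:**
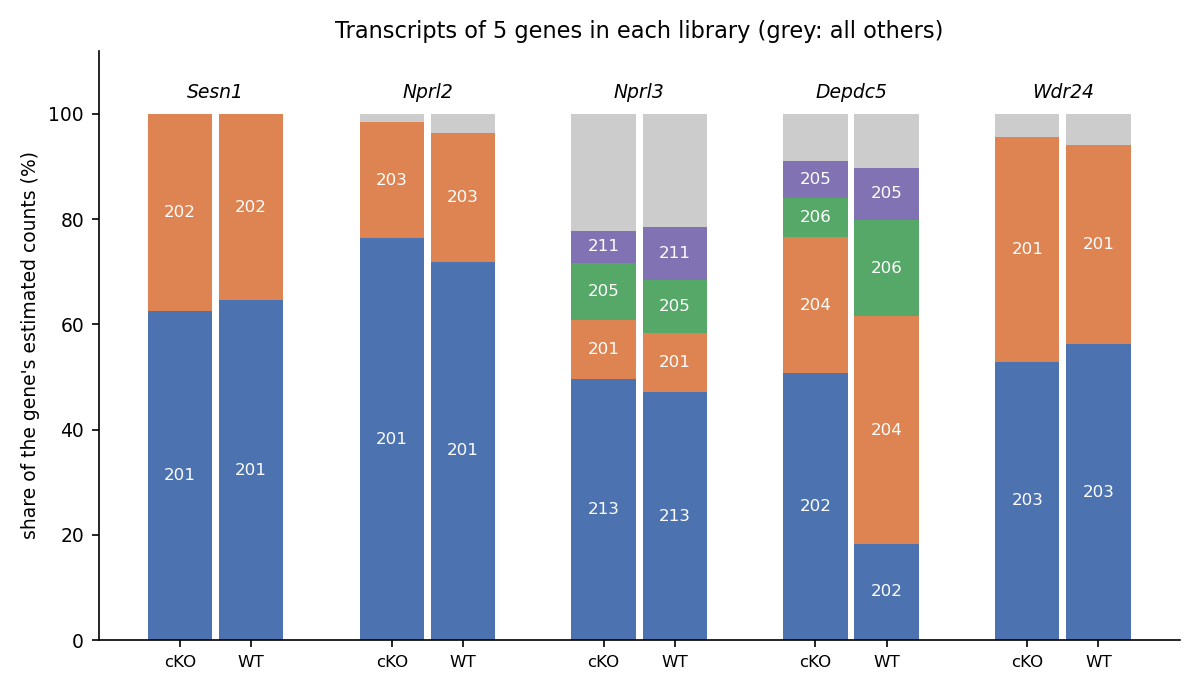
Share of each gene's estimated counts (%) held by its transcripts in cKO (left bar) and WT (right bar); numbers name transcripts with at least 10% in either library and grey is the rest. Depdc5-202 takes 50.7% in cKO and 18.3% in WT, while the shares of the other 4 genes lie within a few points of each other.

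The transcripts of Nprl2, Nprl3 and Wdr24 kept similar shares. Nprl2-201, which codes for the full protein, held 76.4% of the gene's counts in cKO and 71.9% in WT, and most of the rest was Nprl2-203, annotated with a retained intron. Nprl3 was listed mainly under transcripts annotated for nonsense-mediated decay, which took 69.4% of its counts in cKO and 69.6% in WT. The largest of these, Nprl3-213, held 49.7% in cKO and 47.1% in WT, and the coding transcript Nprl3-201 held 11.2% in each library. The TPM of Nprl3 is therefore no measure of its coding RNA alone.

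Wdr24, the GATOR2 subunit in the set (ENSMUSG00000025737, chromosome 17, 25823627 to 25828730, plus strand), was the least abundant of the 10 genes in cKO and, above Sesn3, the second least in WT. It had 17.8 TPM in cKO (interval 16.3 to 19.3) and 15.7 TPM in WT (14.2 to 17.4), which overlap. The log2 ratio was 0.20 (interval 0.01 to 0.39). The coding transcript Wdr24-201 had 6.64 TPM in cKO and 4.99 TPM in WT, and Wdr24-203, annotated with a retained intron, had 8.12 TPM in cKO and 7.35 TPM in WT.

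The genes of mTORC1 itself were close. Mtor (ENSMUSG00000028991, chromosome 4, 148448611 to 148557683, plus strand) had 38.7 TPM in cKO (interval 37.5 to 40.0) and 36.0 TPM in WT (34.6 to 37.5), and its log2 ratio of CPM was 0.29 (interval 0.21 to 0.36). From the deposited TPM, at a pseudocount of 0.1, it was 0.11. Rptor (ENSMUSG00000025583, chromosome 11, 119602905 to 119899576, plus strand) had 30.5 TPM in cKO (29.3 to 31.8) and 26.5 TPM in WT (25.2 to 27.9), with a log2 ratio of 0.15 (interval 0.06 to 0.24). Mtor-202 held 99.5% of the Mtor counts in cKO and 97.3% in WT, and Rptor-201 held 96.2% of the Rptor counts in cKO and 93.0% in WT. The transcripts lower by the size rule in these genes were minor ones. Mtor-201, a short form, had 31 counts in cKO and 124 in WT, and Rptor-211, annotated for nonsense-mediated decay, had 34 counts in cKO and 143 in WT.

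Ddit4, a gene induced by hypoxia, glucocorticoids and energy stress, was the most abundant of the 10 in both libraries. It had 128 TPM in cKO (interval 123 to 133) and 147 TPM in WT (142 to 153), intervals that do not overlap. The log2 ratio was -0.24 (interval -0.32 to -0.16), or 1.18-fold lower in cKO (ENSMUSG00000020108, chromosome 10, 59949669 to 59951834, minus strand), and 15.6% of measured genes had a ratio at least as low. Ddit4 thus differed from Sesn3 in direction and stayed within 1.5-fold.

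Ordered by level, the genes differed between the libraries mainly through the place of Sesn3. In cKO the order was Ddit4, Sesn3, Mtor, Sesn2, Sesn1, Rptor, Nprl3, Nprl2, Depdc5 and Wdr24. From Sesn2 to Nprl2 neighbours had overlapping counting intervals. In WT the order was Ddit4, Mtor, Sesn1, Nprl3, Rptor, Sesn2, Nprl2, Depdc5, Wdr24 and Sesn3. There Sesn1 overlapped with Nprl3, Nprl3 with Rptor, Sesn2 with Nprl2, and Nprl2 with Depdc5. With 2 libraries a gene's pattern is a single ratio, so no genes are named as most like a member.

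**Figure D4:**
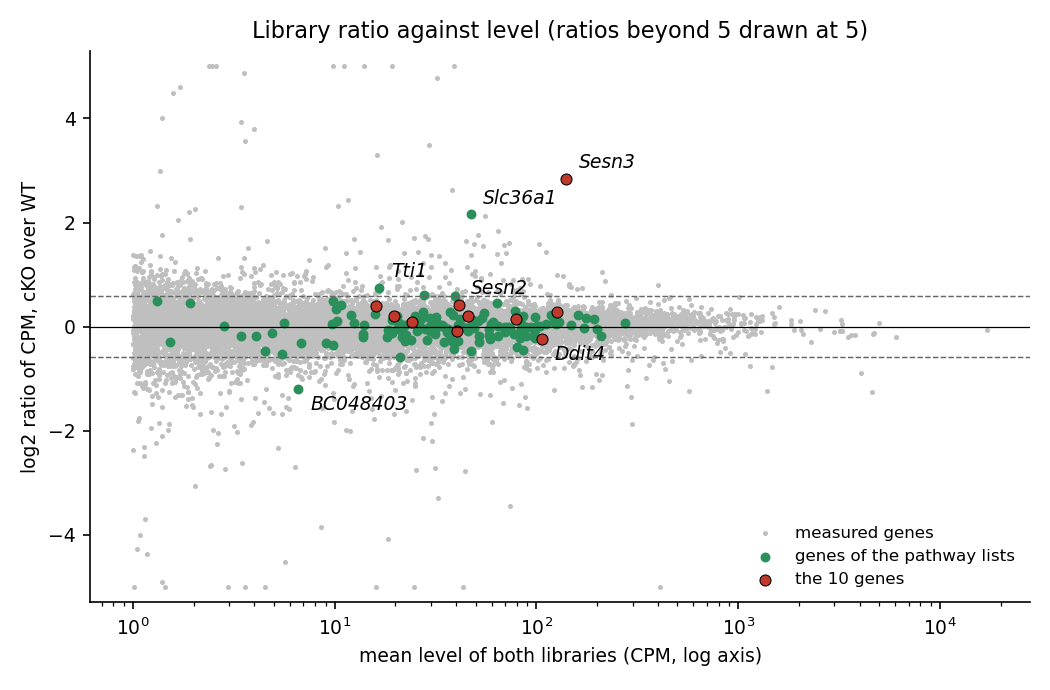
Log2 ratio of CPM, cKO over WT, against the mean level of both libraries (CPM, log axis) for 15917 measured genes (grey), the pathway lists (green) and the 10 genes (red); dashed lines mark 1.5-fold. Sesn3 stands above all other genes with a mean of at least 100 CPM, a mean it reaches only through cKO. Slc36a1 is the pathway gene nearest to it.

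The rest of the pathway and its known inputs were covered by 13 lists, whose 136 genes were all measured. By the size rule 3 of the 136 were higher in cKO (2.21%, against 2.46% of all measured genes) and 1 was lower (0.735%, against 3.39%). Their median log2 ratio was 0.00, with 69 genes above 0 and 67 below. The share called was thus near the background upward and below it downward, so the 4 genes past the rule are given as single values and not as a result about the pathway.

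Slc36a1 encodes a proton-coupled transporter of small amino acids found on lysosomes, where mTORC1 is activated. It had 33.9 TPM in cKO and 9.55 TPM in WT, a log2 ratio of 2.16 (interval 2.0 to 2.32). Slc36a1-203, of 5264 nt with 3695 nt after the coding sequence, had 33.3 TPM in cKO and 6.39 TPM in WT, while Slc36a1-202 had 7 counts in cKO and 93 in WT. The other 10 amino acid transporters did not pass the size rule, among them Slc3a2 (0.09) and Slc7a5 (0.14), which together carry leucine into cells.

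Tti1, which with Telo2 helps assemble the mTOR complexes, had 14.03 TPM in cKO and 9.005 TPM in WT, a log2 ratio of 0.74 (interval 0.53 to 0.96). Tti1-201 was higher (1.14) and Tti1-202 lower (-2.64). The other 9 mTOR complex genes did not pass the rule. Among them Akt1s1 (PRAS40, an inhibitor of mTORC1) was at 0.14, Mapkap1 (mSIN1 of mTORC2) at 0.02 and Prr5l, which binds mTORC2, lowest at -0.58. Pik3ip1, an inhibitor of PI3 kinase on the FoxO list, had 33.6 TPM in cKO and 21.2 TPM in WT, a log2 ratio of 0.61 (interval 0.45 to 0.78). Pik3ip1 overlaps the antisense gene Gm12592 and was at 0.54, short of 1.5-fold, when the counts of both were summed.

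BC048403, the mouse counterpart of the human KICSTOR subunit KICS2, was the gene lower by the rule. KICSTOR is the complex that holds GATOR1 on the lysosome. BC048403 had 3.25 TPM in cKO and 6.55 TPM in WT, a log2 ratio of -1.20 (interval -1.55 to -0.85). It is among the least abundant genes of its list. The other genes of that list did not pass the rule, including the KICSTOR genes Itfg2 (-0.06) and Kptn (-0.14) and the arginine sensor gene Gatsl3 (0.04), the counterpart of human CASTOR1. Its most abundant genes were Gatsl2, related to Gatsl3, at 0.08 and Lars, the leucyl-tRNA synthetase gene, at 0.00.

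**Figure D5:**
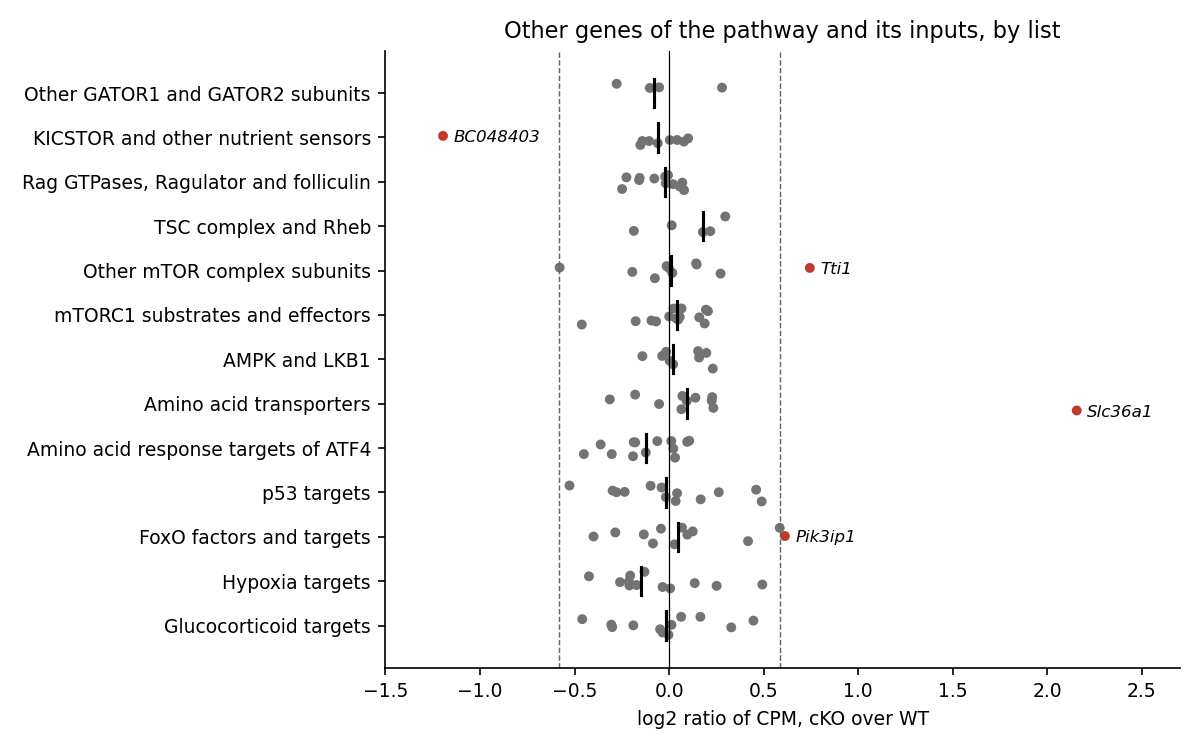
Log2 ratio of CPM, cKO over WT, for each of 136 genes (points) in 13 lists of the pathway and its inputs; black ticks are list medians, dashed lines mark 1.5-fold, and red points passed the size rule. Slc36a1 (2.16), Tti1 (0.74), Pik3ip1 (0.61) and BC048403 (-1.20) stand outside the dashed lines, and Cdkn1b lies on one of them.

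The remaining complexes of the pathway held 0 genes past the size rule. The other GATOR genes had a median log2 ratio of -0.08 over 4 genes, from Seh1l at -0.28 to Wdr59 at 0.28. Sec13, which also serves in vesicle coats and nuclear pores, had 99.1 TPM in cKO and 100.2 TPM in WT. The 12 genes of the Rag GTPases, Ragulator and folliculin had a median of -0.02 and lay between -0.25 and 0.08, with Rraga at 160.2 TPM in cKO and 150.3 TPM in WT, and Lamtor1, the lysosomal anchor of Ragulator, at -0.01. The TSC complex and Rheb had a median of 0.18 over 5 genes. In that list Tsc1 was at 0.30, Tsc2 at 0.18 and Rheb, the GTPase that activates mTORC1, at -0.19. The 14 substrates and effectors of mTORC1 had a median of 0.04 with Eif4ebp1 lowest at -0.46. The most abundant of them by the mean of both libraries were Grb10, an adaptor that restrains insulin signalling, at 0.06 and Pdcd4, a translation inhibitor, at -0.18. The 9 AMPK and LKB1 genes had a median of 0.02, with Cab39 at -0.04 and Prkag2 at -0.14.

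The remaining lists cover genes that respond to signals known to induce sestrins or Ddit4, together with some of the factors that carry those signals. The 13 genes of the ATF4 amino acid response list, Atf4 and the kinase gene Eif2ak4 included, had a median of -0.12, with 0 past the rule. Atf4 itself was at -0.18 and Phgdh, of serine synthesis, at 0.02. The 13 genes of the p53 list, Trp53 itself (0.04) included, had a median of -0.02, with 0 past the rule. Of these genes 6 were above 0 and 7 below, from Gadd45a at -0.53 to Btg2 at 0.49. Among the others Cdkn1a was at 0.17, Plk2 at 0.26, Mdm2 at -0.30, Phlda3 at -0.10 and Bax at -0.28. The 12 FoxO factors and targets had a median of 0.05, and Pik3ip1 was the gene past the rule. Cdkn1b, which encodes a cell cycle inhibitor, was just short of it at 0.58 and was past 1.5-fold under 5 of the 11 alternatives. Foxo1 was at -0.04, Foxo3 at 0.03, Cited2 at -0.09 and Txnip at -0.40. The hypoxia list, Hif1a and Epas1 included, had a median of -0.15 over 12 genes. The glucocorticoid list, with the receptor gene Nr3c1 (0.45), had a median of -0.02 over 12, with 0 past the rule in either list. Of the hypoxia list Bnip3 was at -0.21 and Hif1a at -0.03, and of the glucocorticoid list Mt2 was at 0.00 and Cdkn1c at -0.30. These are RNA levels, so they measure neither the activity of mTORC1 nor that of any factor named.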

How the data were processed

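Whole spinal cord RNA was sequenced as 1 cKO and 1 WT library. The authors deposited estimated counts, TPM and FPKM per gene and per transcript, per the file headers. CASAVA, Bowtie2 2.3.2 and GRCm38.p6 are named in the submitters' processing notes, with no role. The counting tool, the annotation release and any use of strand were not given in the sources used here. Reads from exons that transcripts share are divided between them by estimate. Deposited counts are whole numbers, and constant × FPKM × length lay within 0.2 of an even number for 39.1% (cKO) and 41.4% (WT) of genes with 1 transcript and few counts, against 15.4% and 14.1% within 0.2 of an odd one. One fragment was therefore taken as 2 counts.

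TMM factors (edgeR 4.0.16, R 4.3.3) were 0.9994 for cKO and 1.0006 for WT, and scaled the library sizes. CPM, log2 ratios without a pseudocount and exact 95% intervals on fragments came from scipy 1.17.1 (Python 3.11.15). A count of 0 was set to 3 fragments. Exact Poisson intervals of TPM and Wilson intervals of shares cover counting error at most. Intervals of transcripts and of shares treat every count as assigned with certainty. They are too narrow where transcripts of a gene share bases. No test was run, because 1 library per group leaves 0 residual degrees of freedom. The size rule was tested on simulated data that held counting error only. That test cannot speak to variation between animals or to how counts were divided between transcripts. Named genes were the 10 members, their transcripts with at least 10% of a gene's counts, and from each list up to 6 past the size rule and the 2 of highest TPM. Other list genes were named after their values were seen. The members and lists were chosen with earlier results of these data known. Transcript names, exons and sequences are from GENCODE M21 (GRCm38). Alternatives for scaling were DESeq2 1.42.0 size factors, upper quartile factors, library totals, and TPM and FPKM with pseudocounts. On TPM and FPKM a gene was called by the 1.5-fold cut alone, without an interval. Other alternatives were intervals on counts, other filters, main transcripts and, chosen after seeing the data, sums with overlapping genes.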

Additional observations from a re-analysis of the deposited data

How the results depend on the processing

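All 110 log2 ratios of the 10 genes under the 11 alternatives kept the direction of the main value, and 102 lay inside its counting interval. Many of these values could not move. Intervals on counts and the other filters reuse the main ratio. Sums with overlapping genes changed only Nprl3 and Rptor, and main transcripts left Sesn2 and Ddit4 as they were. Other size factors shift every gene by the same small amount. The 110 and 102 are therefore no measure of how firm the ratios are. Sesn3 ranged from 2.57 (TPM with a pseudocount of 1) to 2.89 (main transcript). The number of these genes higher in cKO was 1 under every alternative except the main transcript of each gene, where it was 2 (Sesn3 and Depdc5, at 1.67), and 0 were lower under each. The log2 ratio of Mtor was lowest on FPKM, at 0.07. Of the pathway lists, 2 to 4 genes were higher, with Slc36a1 and Tti1 among them each time. Slc36a1 ranged from 1.72 to 2.34. Tti1 ranged from 0.587 to 1.14 and was barely past the cut of 0.585 on FPKM and on TPM with a pseudocount of 1. Its highest value was that of its main transcript. Cdkn1b was gained under 5 alternatives (DESeq2, upper quartile, TPM with either pseudocount and FPKM), and Pik3ip1 was lost when summed with its overlapping gene. The number lower was 2 in place of 1 on TPM with a pseudocount of 0.1 or 1 and on FPKM with a pseudocount of 0.1 (BC048403 and Prr5l), and 8 with main transcripts. Using 1 transcript in place of the sum makes these values depend on how counts were divided between transcripts. No paired analysis was possible because each group has 1 library. Without replicates, leaving out a library gives no value.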
